A study of Phaseolus vulgaris and Phaseolus lunatus with 12 samples.

Results

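Genes of abscisic acid synthesis, breakdown, perception and response, together with late embryogenesis abundant (LEA) genes, were described in lima bean (*Phaseolus lunatus* var. Peladilla) leaves with and without spider mites. A gene was a member when its deposited product name contained 9-cis-epoxycarotenoid dioxygenase, abscisic acid, abscisic-aldehyde oxidase, abscisic acid-insensitive, abscisic stress, zeaxanthin epoxidase, dehydrin or late embryogenesis abundant, in any case. The words found 47 of 43997 lima bean genes, on 11 chromosomes and 1 unplaced contig. No product name held abscisic stress or dehydrin (0 genes each), so on the dehydration side the 47 genes hold 7 LEA genes only. Infested leaves were detached first true leaves of plants grown for 3 weeks, carried 50 adult females of *Tetranychus urticae* (London strain) per leaflet, and were collected after 24 h. Control leaves were detached in the same way and carried 0 mites, so the design has no intact leaf and both groups share the cut. Each group held 3 RNA-seq libraries, and the series sets this species beside common bean (*P. vulgaris*) to compare how they respond to the mite. The labels do not say whether libraries came from separate plants, so p-values measure the spread between libraries, which may be technical.

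Abscisic acid is the plant hormone of water deficit: it closes stomata, holds seeds dormant and switches on genes of dehydration tolerance. It is made from carotenoids in the plastid, where zeaxanthin epoxidase makes the epoxidised precursors and the 9-cis-epoxycarotenoid dioxygenases (NCED) cut them in the step held to limit the rate, and in the cytosol abscisic-aldehyde oxidase gives the hormone. Cytochrome P450 enzymes of the CYP707A family, the abscisic acid 8'-hydroxylases, remove it. Receptors of the PYL family bind it and block type 2C protein phosphatases (PP2C), which frees SnRK2 kinases to activate bZIP transcription factors such as ABI5 and the ABF proteins. LEA proteins, among them the dehydrins, accumulate in drying seeds and in water-stressed leaves.

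One 8'-hydroxylase gene, named CYP707A2 after tomato, rose 4.62-fold, while the most abundant zeaxanthin epoxidase gene, a second 8'-hydroxylase gene and 1 ABI5-like transcription factor gene fell. The calls of the epoxidase and of that second 8'-hydroxylase gene were lost in several alternatives, given below. The NCED1 gene, the receptors, the ABF-like factors and the LEA genes that could be tested did not pass the test.

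Of the 47 members, 27 had enough counts to be tested and 20 did not. Calls rest on the quasi-likelihood test of edgeR, where the Benjamini-Hochberg adjusted p over all genes tested had to lie below 0.05. By that rule 4 of the 27 tested members were called, 1 higher and 3 lower, which is 14.8%. Over all 18523 tested genes 17.1% were called, 9.65% higher and 7.46% lower, so the members' share lay near the background. An unadjusted p below 0.05 was reached by 9 members (33.3%) and by 32.5% of all tested genes. DESeq2 called 2 members higher and 4 lower, against 10.1% and 8.35% of its tested genes (18.4% in either direction), and edgeR with no filter on low counts called 2 higher and 3 lower, against 7.57% and 5.68% (13.3% in either direction). Both fits tested more members than the 27, so the members' shares in them are not given. The log2 fold changes (infested minus control) of the members ran from -1.98 to 2.21 with a median of -0.13, against a median of -0.01 over all tested genes, and 22 members changed by less than 2-fold in the estimate. The groups' ranges of CPM (counts scaled to library size) did not overlap in 7 tested members, 2 higher and 5 lower, where 37.9% of all tested genes did not overlap (19.7% higher, 18.1% lower). In bulk leaf RNA, fewer cells of a type and less RNA per cell cannot be told apart.

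**Figure D1:**
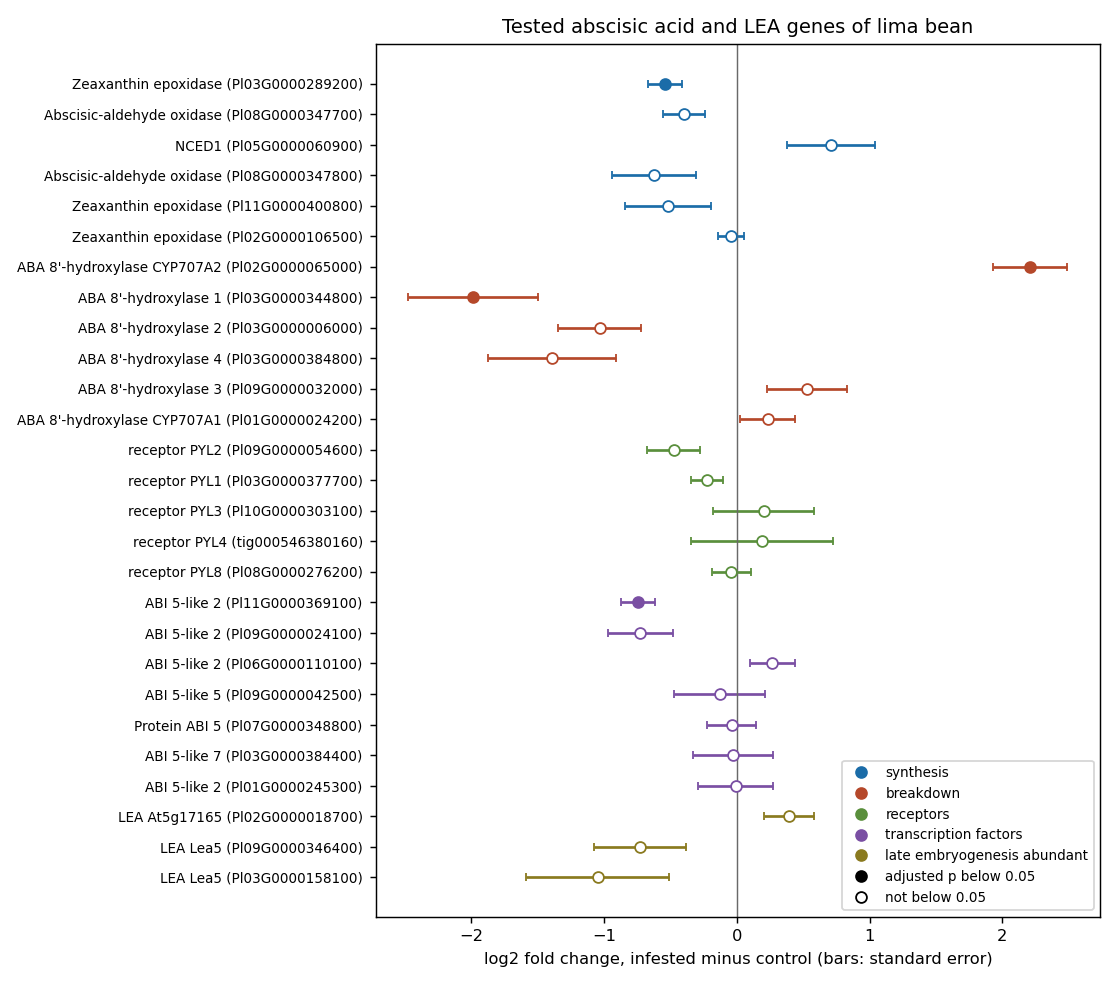
Log2 fold change (x axis, infested minus control) of the 27 tested lima bean members (y axis), coloured by role; points are edgeR estimates, bars their standard errors, and filled points have an adjusted p below 0.05. The 4 filled points are CYP707A2 at 2.21 and, below 0, an 8'-hydroxylase 1 at -1.98, a zeaxanthin epoxidase at -0.54 and an ABI5-like 2 gene at -0.74.

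Lima bean libraries held 13317991 to 17255676 counts. The libraries numbered 1 stood apart from the others of their own group. The mean chi-square per gene was 23.5 and 27.8 between infested library 1 and the other two, against 10.3 between infested libraries 2 and 3. It was 26 and 28 between control library 1 and the other two, against 14.8 between control libraries 2 and 3. For genes where leaving out both of them changed a call or a sign, or moved the log2 fold change by over 0.5, the value without both or the lost call is given. This setting was chosen after the values were seen.

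Among the 8 synthesis genes, 6 were tested, and 1 fell while 0 rose, with a median log2 fold change of -0.46. Zeaxanthin epoxidase Pl03G0000289200.v1 (chromosome 3, 34217977 to 34225486) is by far the most abundant member, at 322 CPM per kilobase of gene over all 6 libraries. It had 612, 528 and 545 CPM in infested libraries and 797, 772 and 884 CPM in control libraries. Every infested library lay below every control library. The means were 562 ± 44.4 and 817 ± 58.9 CPM in infested and control leaves (SD, n = 3 each), and the log2 fold change was -0.54 ± 0.13 (standard error; edgeR quasi-likelihood test, adjusted p = 0.0229). Among the fits that left out 1 library, the call was lost without control library 3, infested library 2 or infested library 3, at adjusted p = 0.0670, 0.104 and 0.0946, and the range over all alternatives was 0.000171 to 0.104.

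The other zeaxanthin epoxidase genes were far less abundant. Pl02G0000106500.v1 had 25.3, 26.0 and 24.8 CPM in infested libraries and 27.1, 25.0 and 26.3 CPM in control libraries, a log2 fold change of -0.04 ± 0.10 with overlapping groups. Pl11G0000400800.v1 had 4.66, 2.79 and 3.78 CPM in infested libraries and 7.59, 4.55 and 3.84 CPM in control libraries, at -0.52 ± 0.33 on the log2 scale (edgeR adjusted p = 0.314). Another gene of this name, Pl02G0000180700.v1, had 0 counts in every library.

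NCED1 (Pl05G0000060900.v1, chromosome 5, 5629314 to 5632005), whose best match is the NCED1 enzyme of common bean, had 125, 229 and 270 CPM in infested libraries and 184, 86.2 and 112 CPM in control libraries. Infested libraries 2 and 3 were the highest of the 6, but control library 1 lay above infested library 1, so the groups overlapped. The means were 208 ± 74.7 CPM in infested leaves and 127 ± 50.3 CPM in control leaves (SD, n = 3 each). The log2 fold change of 0.71 ± 0.33 did not pass the edgeR quasi-likelihood test (adjusted p = 0.180). With both libraries numbered 1 left out it was 1.32 with an adjusted p of 0.00109, and adjusted p over the 15 alternatives ran from 0.00109 to 0.477. The second gene of the enzyme, NCED2 (Pl07G0000280200.v1), had 2, 2 and 4 counts in infested libraries and 1, 4 and 4 counts in control libraries and was not tested.

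The abscisic-aldehyde oxidase genes, both matched to Arabidopsis AAO3, which makes the hormone from its aldehyde, stand side by side on chromosome 8 with 0 genes and 3157 bases between them. Pl08G0000347700.v1 had 20.7, 25.0 and 24.4 CPM in infested libraries and 34.2, 33.8 and 24.2 CPM in control libraries, a log2 fold change of -0.40 ± 0.16 (edgeR adjusted p = 0.120). Control libraries 1 and 2 were highest and control library 3 lay within the infested range; without control library 3 the adjusted p was 0.0365, in a range of 0.0365 to 0.399 over the alternatives. Its neighbour Pl08G0000347800.v1 had 2.72, 3.19 and 2.59 CPM in infested libraries and 2.91, 4.20 and 6.08 CPM in control libraries, at -0.62 ± 0.32 on the log2 scale (edgeR adjusted p = 0.214). They share a best match, and the rule for reads that fit more than 1 gene is not stated, so how reads were split between them is uncertain.

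Summed over the 8 synthesis genes, the level was 350, 350 and 373 CPM per kilobase in infested libraries and 464, 414 and 474 in control libraries, a sum made mostly of the epoxidase Pl03G0000289200.v1. Markers of leaf mesophyll, the photosynthetic tissue, moved in the same direction. Of 23 genes for chlorophyll a-b binding proteins and the Rubisco small subunit, all tested, 13 fell (56.5%) and 0 rose, with 2 to 23 falls over the alternatives. Of all tested genes 7.46% fell. Their sum was 33486, 15757 and 16945 CPM in infested libraries and 41267, 55021 and 52601 CPM in control libraries. Their part in the fall of the plastid enzyme zeaxanthin epoxidase was not tested.

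**Figure D2:**
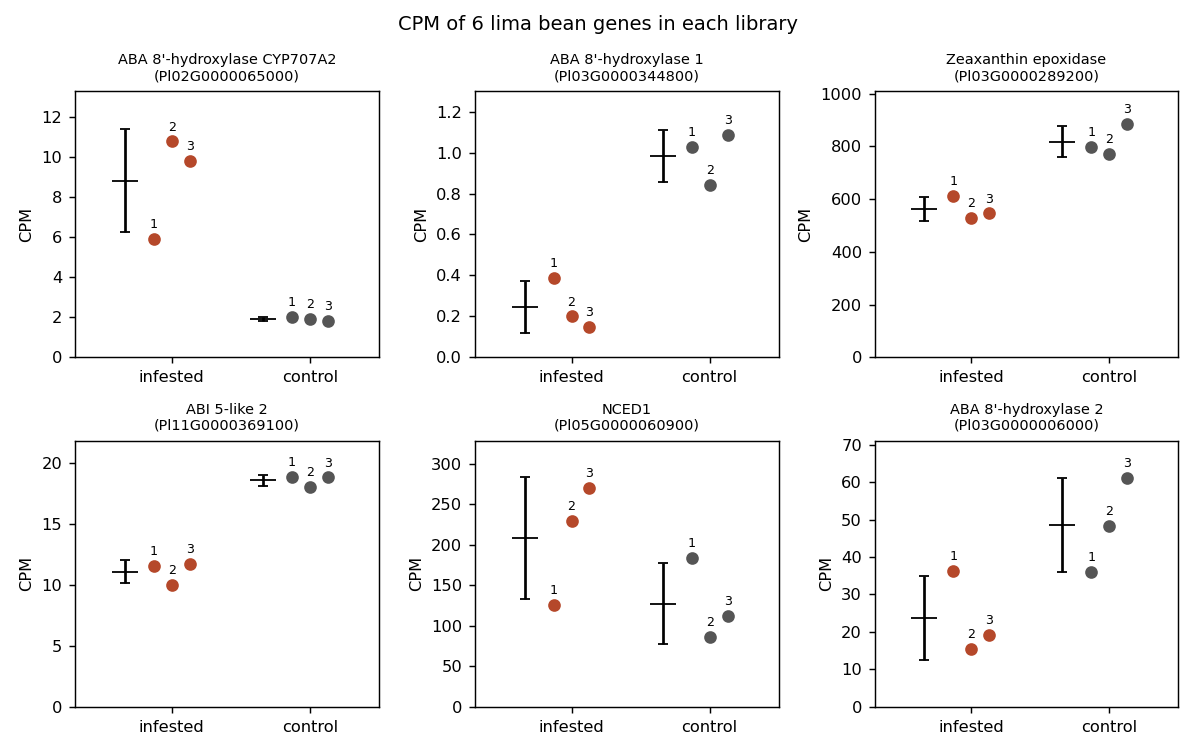
CPM (y axis, linear from 0) of 6 members in each infested and control lima bean library; points are libraries with their number, and the black bar to their left is the mean with SD (n = 3). The groups do not overlap for CYP707A2, 8'-hydroxylase 1, the zeaxanthin epoxidase and the ABI5-like 2 gene, while for NCED1 and 8'-hydroxylase 2 they do.

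Among the 27 tested members, the highest and the lowest estimate both belonged to breakdown genes. Of 9 genes for 8'-hydroxylases, 6 were tested, and 1 rose and 1 fell. CYP707A2 Pl02G0000065000.v1 (chromosome 2, 5100799 to 5103120) had 5.90, 10.8 and 9.78 CPM in infested libraries and 2.00, 1.89 and 1.81 CPM in control libraries. The control libraries were almost equal, and the lowest infested library was still well above them. The means were 8.82 ± 2.57 CPM in infested leaves and 1.90 ± 0.0947 CPM in control leaves (SD, n = 3 each), and the log2 fold change was 2.21 ± 0.28 (edgeR quasi-likelihood test, adjusted p = 0.00201). The gene was called in all 15 alternatives, with adjusted p up to 0.0152.

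The gene that fell, 8'-hydroxylase 1 Pl03G0000344800.v1 (chromosome 3, 40739556 to 40743511; Arabidopsis CYP707A1), is the least abundant tested member. It had 5, 3 and 2 counts in infested libraries and 18, 12 and 15 counts in control libraries, which is 0.388, 0.199 and 0.148 CPM against 1.03, 0.841 and 1.09 CPM. The groups did not overlap, and the log2 fold change was -1.98 ± 0.49 (edgeR quasi-likelihood test, adjusted p = 0.0277). At these counts the call was not firm: it was lost in 8 of 14 alternatives, among them the omission of any 1 control library or of infested library 2 or 3. Adjusted p was then 0.0662, 0.0597 and 0.0858 without control libraries 1, 2 and 3, and 0.115 and 0.125 without infested libraries 2 and 3, in a range of 0.0248 to 0.125 over the alternatives.

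The most abundant 8'-hydroxylase gene was 8'-hydroxylase 2 Pl03G0000006000.v1 (chromosome 3, 491265 to 500008; Arabidopsis CYP707A2), at 19.4 CPM per kilobase over the 6 libraries, where the other tested genes of the family lay between 0.400 and 3.26. It had 36.3, 15.5 and 19.3 CPM in infested libraries and 36.0, 48.3 and 61.0 CPM in control libraries. Infested library 1 and control library 1 were almost equal, and the others separated, lower in infested leaves. The log2 fold change of -1.03 ± 0.31 missed the threshold (edgeR quasi-likelihood test, adjusted p = 0.0567). It passed without infested library 1 (-1.48, adjusted p = 0.00462), without control library 1 (adjusted p = 0.0479), without both (-1.66) and under 4 other settings; adjusted p over the alternatives ran from 0.000474 to 0.202.

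Pl03G0000384800.v1, 8'-hydroxylase 4, had 3.42, 2.33 and 1.78 CPM in infested libraries and 2.51, 8.90 and 8.40 CPM in control libraries. Control libraries 2 and 3 stood far above the rest, and control library 1 lay within the infested range. The log2 fold change of -1.39 ± 0.48 did not pass (edgeR adjusted p = 0.0845), and without control library 1 it was -1.79 with an adjusted p of 0.0109 and without both libraries numbered 1 it was -2.07 with an adjusted p of 0.00156 (range over the alternatives 0.00156 to 0.255). The remaining tested genes had positive estimates and did not pass: 8'-hydroxylase 3 (Pl09G0000032000.v1) at 0.53 ± 0.30 and CYP707A1 (Pl01G0000024200.v1, named after tomato) at 0.23 ± 0.21 on the log2 scale, with edgeR adjusted p of 0.269 and 0.489. For Pl01G0000024200.v1 the groups did not overlap, at 7.69, 5.58 and 5.70 CPM in infested libraries and 5.31, 5.39 and 5.43 CPM in control libraries.

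Summed over all 9 genes, the family stood at 31.9, 22.9 and 22.4 CPM per kilobase in infested libraries and 28.3, 35.4 and 43.2 in control libraries, with overlap. The rise of Pl02G0000065000.v1, to 5.28 ± 1.54 CPM per kilobase in infested leaves against 1.14 ± 0.0567 in control leaves (SD, n = 3 each), was smaller per kilobase than the difference in Pl03G0000006000.v1, at 12.8 ± 5.98 in infested leaves and 26.1 ± 6.74 in control leaves. Without Pl03G0000006000.v1, left out after its values were seen, the other 8 genes summed to 12.4, 14.5 and 12.1 CPM per kilobase in infested libraries and 8.96, 9.37 and 10.4 in control libraries, with no overlap. These sums hold the called Pl02G0000065000.v1, at 3.53, 6.44 and 5.85 CPM per kilobase in infested libraries and 1.20, 1.13 and 1.08 in control libraries. The gap is therefore not shown to be shared by the other genes.

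Of the 12 receptor genes, 5 were tested and 0 were called by edgeR, with 1 at an unadjusted p below 0.05 and 0 called in any alternative, DESeq2 included; the median log2 fold change was -0.04. PYL1 (Pl03G0000377700.v1) was the most abundant, at 35.2 CPM per kilobase. It had 21.2, 19.3 and 19.1 CPM in infested libraries and 24.1, 20.7 and 24.9 CPM in control libraries, at -0.22 ± 0.12 on the log2 scale (edgeR adjusted p = 0.239). PYL2 (Pl09G0000054600.v1), at 11.1 CPM per kilobase, had 5.36, 4.52 and 5.85 CPM in infested libraries and 7.99, 6.52 and 7.31 CPM in control libraries. Every infested library of PYL2 lay below every control library, but the log2 fold change of -0.47 ± 0.20 did not pass (edgeR quasi-likelihood test, adjusted p = 0.139). PYL8 (Pl08G0000276200.v1), at 7.49 CPM per kilobase, was at -0.04 ± 0.15, PYL3 (Pl10G0000303100.v1) at 0.20 ± 0.38 and PYL4 (tig000546380160.v1) at 0.19 ± 0.53, all with overlapping groups. For PYL3 the estimate was -0.30 with both libraries numbered 1 left out (adjusted p = 0.674, range over the alternatives 0.526 to 0.962). The summed level of the 12 receptors was 56.4, 50.8 and 54.2 CPM per kilobase in infested libraries and 65.4, 57.5 and 64.8 in control libraries.

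The phosphatases and kinases that the receptors act through carry no abscisic acid word in their names and were read from lists. The PP2C list took every gene of that name, not only those that PYL receptors bind. It held 86 genes, of which 72 were tested, 9 rose and 6 fell, 20.8% in all, near the 17.1% of all tested genes. Whether the receptors act on the called genes was not tested. Of the 9 rises and 6 falls, the 3 with the lowest p were PP2C 33 (Pl08G0000021400.v1) at a log2 fold change of 1.24, PP2C 27 (Pl09G0000302600.v1) at 2.14 (2.69 without both libraries numbered 1) and PP2C 57 (Pl09G0000139700.v1) at -0.88. The matches to Arabidopsis HAB1 and PP2CA, phosphatases that PYL receptors bind, were looked up after the annotation was seen. HAB1 (Pl01G0000052800.v1) had 99.1, 101 and 96.7 CPM in infested libraries and 102, 92.6 and 101 CPM in control libraries, at 0.01 ± 0.09 on the log2 scale. The PP2CA matches Pl01G0000389100.v1 and Pl08G0000372100.v1 were at -0.02 ± 0.32 and -0.29 ± 0.18 and were not called (edgeR adjusted p = 0.977 and 0.309). For Pl01G0000389100.v1 the sign turned with both libraries numbered 1 left out, at 0.62 with an adjusted p of 0.0106, in a range of 0.0106 to 0.981 over the alternatives, and Pl08G0000372100.v1 was then at 0.01. Of 12 genes named as SnRK2 kinases, 11 were tested, 1 rose and 0 fell, 9.09% in all. The rise was in SAPK3 (Pl03G0000308200.v1, a rice name), with 58.1, 83.1 and 95.9 CPM in infested libraries and 53.4, 41.7 and 42.8 CPM in control libraries, at 0.78 ± 0.19 (edgeR adjusted p = 0.0253). It was lost in 5 alternatives, with adjusted p up to 0.100, among them those without control library 2 or 3 or infested library 2 or 3. Matches to Arabidopsis SRK2E, the kinase that closes stomata, stood at -0.08 ± 0.09 (Pl03G0000015300.v1) and -0.08 ± 0.12 (Pl03G0000386300.v1), and SRK2D (Pl02G0000103100.v1) at 0.10 ± 0.10, none of them called.

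Transcription factor genes numbered 11, of which 7 were tested, 1 fell and 0 rose. ABI5-like 2 Pl11G0000369100.v1 (chromosome 11, 45202834 to 45206094; Arabidopsis DPBF3, a bZIP factor) had 11.6, 10.0 and 11.7 CPM in infested libraries and 18.9, 18.1 and 18.8 CPM in control libraries. The spread within either group was small beside the gap between them. The means were 11.1 ± 0.927 and 18.6 ± 0.454 CPM in infested and control leaves (SD, n = 3 each), and the log2 fold change was -0.74 ± 0.13 (edgeR quasi-likelihood test, adjusted p = 0.00671). It was called in all 15 alternatives, with adjusted p up to 0.0361.

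The other tested genes of the same name did not pass. Pl09G0000024100.v1 had 3.18, 4.19 and 2.82 CPM in infested libraries and 4.85, 5.89 and 6.22 CPM in control libraries. Its groups did not overlap and its log2 fold change was -0.73 ± 0.24 (edgeR quasi-likelihood test, adjusted p = 0.0776). Pl06G0000110100.v1 was at 0.27 ± 0.17 and Pl01G0000245300.v1 at -0.01 ± 0.29, both with overlapping groups.

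The ABF-like genes, whose Arabidopsis matches bind abscisic acid response elements in leaves, split within each group. ABI5-like 5 (Pl09G0000042500.v1; Arabidopsis ABF2), the most abundant factor at 50.4 CPM per kilobase, had 85.0, 161 and 141 CPM in infested libraries and 221, 106 and 96.9 CPM in control libraries. Control library 1 was the highest and infested library 1 the lowest of the 6, while infested libraries 2 and 3 lay above control libraries 2 and 3. Over all 6 libraries the log2 fold change was -0.13 ± 0.34 (edgeR adjusted p = 0.834), and with both libraries numbered 1 left out it was 0.57 with an adjusted p of 0.0163, in a range of 0.0163 to 0.951 over the alternatives. ABI5-like 7 (Pl03G0000384400.v1; Arabidopsis ABF4) had 19.7, 41.8 and 48.9 CPM in infested libraries and 46.3, 31.0 and 35.6 CPM in control libraries, at -0.03 ± 0.30. With both libraries numbered 1 left out its sign turned, at 0.44 (edgeR adjusted p = 0.0633, range over the alternatives 0.0633 to 0.964).

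ABI5 itself (Pl07G0000348800.v1), at 21.1 CPM per kilobase, had 51.9, 48.6 and 53.9 CPM in infested libraries and 70.2, 44.6 and 43.4 CPM in control libraries, at -0.04 ± 0.18 on the log2 scale and 0.21 with both libraries numbered 1 left out. Its gene model spans 42728950 to 42803694 on chromosome 7 and overlaps 7 other models on either strand, and whether counting used strand is not stated, so its counts may hold reads of those genes. Of 5 further bZIP genes with abscisic acid response names, 4 were tested and 0 were called by edgeR, with 1 at an unadjusted p below 0.05 and 0 called in any alternative, DESeq2 included.

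**Figure D3:**
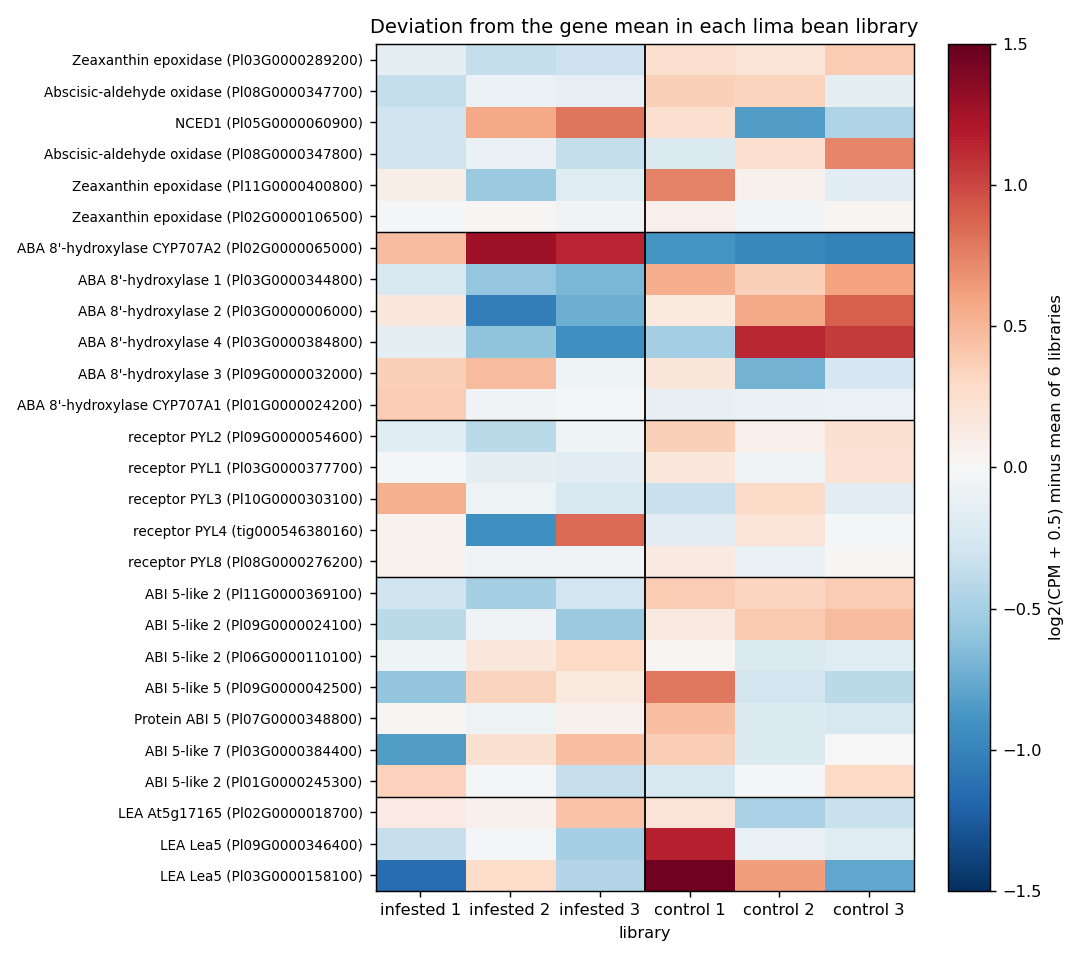
Deviation of log2(CPM + 0.5) from the mean of the 6 lima bean libraries (colour, red above and blue below) for the 27 tested members (rows, grouped by role) in each library (columns, infested left of the black line). Deviations run from -1.15 to 1.46; control library 1 is the reddest control in 16 of the 27 rows.

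LEA genes numbered 7, of which 3 were tested and 0 were called by edgeR, with 0 at an unadjusted p below 0.05; DESeq2 called 1 that edgeR did not test, described further on. The gene named At5g17165 (Pl02G0000018700.v1), at 128 CPM per kilobase, had 42.3, 40.7 and 52.2 CPM in infested libraries and 44.5, 27.6 and 30.6 CPM in control libraries. Control library 1 lay inside the infested range and the other controls below it. The log2 fold change of 0.39 ± 0.19 did not pass (edgeR adjusted p = 0.189), and without control library 1 it was 0.63 with an adjusted p of 0.0277. Without both libraries numbered 1 it was 0.67 with an adjusted p of 0.0195, in a range of 0.0195 to 0.476 over the alternatives.

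The Lea5 genes had negative estimates, with the widest spread in control leaves. Pl09G0000346400.v1 had 22.8, 28.4 and 20.4 CPM in infested libraries and 65.9, 26.9 and 25.5 CPM in control libraries, at -0.73 ± 0.35 (edgeR adjusted p = 0.191). Pl03G0000158100.v1 had 7.22, 20.1 and 12.1 CPM in infested libraries and 46.4, 25.9 and 9.48 CPM in control libraries, at -1.05 ± 0.54 (edgeR adjusted p = 0.219). In both, control library 1 was the highest of the 6 and the groups overlapped, and with both libraries numbered 1 left out the estimates were -0.11 and -0.14.

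Spread within a group was wide in a part of the members. The highest library of a group was over 2 times the lowest for 22.2% of tested members in infested and 25.9% in control leaves, against 11.6% and 13.2% of all tested genes. For the genes found by domain and given below it was 26.8% in both groups. The genes compared were not matched for level. Control library 1 was the highest control for 16 of the 27 tested members (59.3%), against 37% of all tested genes, and infested library 1 was the lowest infested library for 7 (25.9%), against 36.8%. Both held for 7 members (25.9%), against 17.2% of all tested genes: NCED1, 1 abscisic-aldehyde oxidase, CYP707A2, 1 ABI5-like 2, ABF2, ABF4 and 1 Lea5. With both libraries numbered 1 left out, 5 members were called higher and 5 lower, against 10.4% and 9.95% of all genes tested in that fit (20.3% in either direction), and 1 of the 5 higher was not tested with all libraries in. That fit tested more members than the 27, so the members' share in it is not given.

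The 20 members that were not tested had few or no counts in these leaves. Together they comprise 2 synthesis, 3 breakdown, 7 receptor, 4 transcription factor and 4 LEA genes. Of these, 6 had 0 counts in all 6 libraries, and the highest single value was 1.78 CPM. The highest was LEA protein 3 (Pl05G0000038400.v1, chromosome 5, 3081555 to 3083033), with 9, 14 and 24 counts in infested libraries and 3, 1 and 0 counts in control libraries. Each infested library lay above each control library. With no filter on low counts it was at 3.60 ± 0.85 on the log2 scale (edgeR quasi-likelihood test, adjusted p = 0.0183), and it was called in 6 of the 7 alternatives that tested it, with adjusted p from 0.00361 to 0.0545. A gene named LEA D-34 (Pl07G0000290700.v1) had 0, 6 and 15 counts in infested libraries and 0, 2 and 0 counts in control libraries, a ratio of 11.3 (95% counting interval 2.76 to 99.5) that rests on infested libraries 2 and 3. That interval leaves out the spread between libraries. In the fit with no filter this gene did not pass, at 3.27 ± 1.46 (edgeR quasi-likelihood test, adjusted p = 0.183). It was called in 0 of the 2 alternatives that tested it.

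Dehydrins and related proteins carry no such product name here but can be found by their domain. A domain of the LEA, dehydrin or ABA/WDS (abscisic acid, water deficit stress) kind was annotated in 71 genes, of which 66 are not members; this set was added after the annotation had been seen. Of the 66, 41 were tested, 7 rose and 2 fell, 22% in all against 17.1% of all tested genes. Their median log2 fold change was -0.16. Of 3 genes with a dehydrin domain 1 was tested, Pl09G0000011100.v1 (chromosome 9, 778205 to 779191). It had 222, 239 and 329 CPM in infested libraries and 507, 248 and 244 CPM in control libraries. The groups overlapped, control library 1 stood alone at the top, and the log2 fold change was -0.34 ± 0.29 (edgeR adjusted p = 0.472). The sign turned without control library 1, at 0.10, and without both libraries numbered 1, at 0.20. An ABA/WDS gene, Pl07G0000089400.v1, had 281, 421 and 333 CPM in infested libraries and 1270, 720 and 361 CPM in control libraries, at -1.18 ± 0.39 (edgeR adjusted p = 0.0750). Control library 3 lay within the infested range, and without it the adjusted p was 0.0148, while without both libraries numbered 1 the estimate was -0.53 with an adjusted p of 0.251 (range over the alternatives 0.0148 to 0.251).

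Of the 3 genes with a LEA group 3 domain that are not members, all named ARG2, 2 rose. The member Lea5 gene Pl03G0000158100.v1, given above at -1.05, also carries this domain and was not called. ARG2 is a gene induced by auxin in mung bean. Pl01G0000359700.v1 (chromosome 1, 42598121 to 42598534) had 4.27, 12.9 and 12.7 CPM in infested libraries and 1.14, 2.17 and 0.796 CPM in control libraries, at 2.86 ± 0.51 (edgeR quasi-likelihood test, adjusted p = 0.00804). Pl06G0000223100.v1 (chromosome 6, 26944775 to 26945610) had 17.5, 27.0 and 37.8 CPM in infested libraries and 9.59, 12.5 and 7.24 CPM in control libraries, at 1.49 ± 0.29 (edgeR adjusted p = 0.0120). Both were called in all 15 alternatives, with adjusted p up to 0.0392 and 0.0465. The third ARG2 gene, Pl07G0000249600.v1, had lower values in infested leaves, 101, 123 and 89.4 CPM against 139, 132 and 165 CPM in control leaves, and did not pass (edgeR adjusted p = 0.0567). The LEA group 2 domain, which is also found in NDR1/HIN1-like defence proteins, was in 51 genes, of which 31 were tested, 5 rose and 2 fell, 22.6% in all. Its rises included NDR1/HIN1-like 13 (Pl08G0000345100.v1) at 1.74 ± 0.26 and NDR1/HIN1-like 10 (Pl01G0000346700.v1) at 1.67 ± 0.35. The second was lost without infested library 2 or 3, with adjusted p up to 0.0738. Of 11 tested NDR1/HIN1-like genes 2 were called (18.2%, against 17.1% of all tested genes). A desiccation-related PCC27-45 gene (Pl08G0000338000.v1) also rose, at 0.45 ± 0.12. Its call was lost in 8 of 15 alternatives, among them that without both libraries numbered 1. Another gene of that name (Pl06G0000102200.v1) was not called, at -0.14 ± 0.10. The deepest fall was in Pl08G0000426700.v1, at -1.98 ± 0.27, whose product name is a fructose-bisphosphate aldolase.

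**Figure D4:**
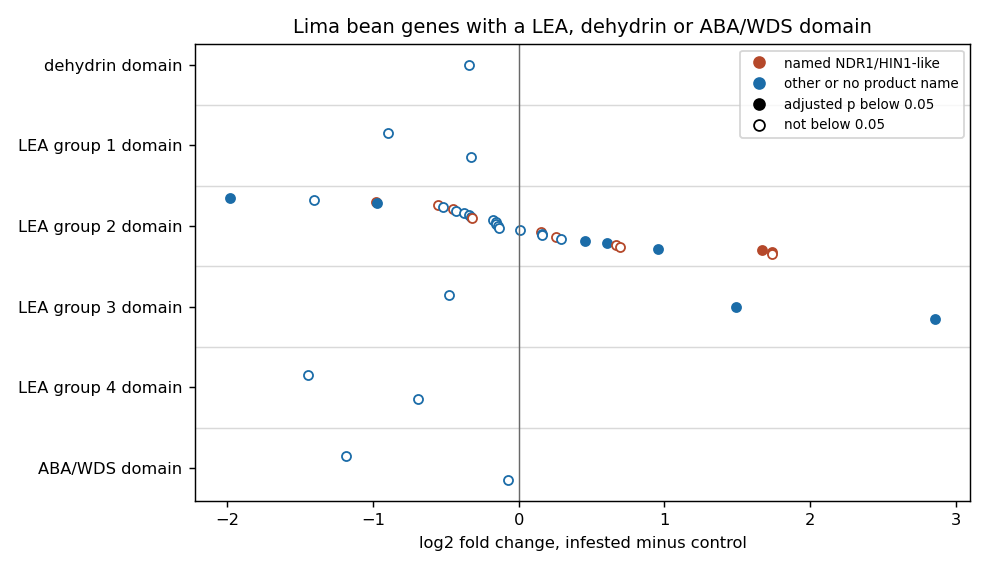
Log2 fold change (x axis, infested minus control) of the 41 tested lima bean genes that carry a LEA, dehydrin or ABA/WDS domain and are not members, by domain (y axis; the height within a row only separates points); filled points have an adjusted p below 0.05 and red points are named NDR1/HIN1-like. The dehydrin gene is at -0.34 and 2 ARG2 genes with a group 3 domain are at 1.49 and 2.86.

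Upstream of the members, genes of carotenoid formation and turnover were read from a list. Of its 20 genes 15 were tested, 8 fell and 1 rose, 60% in all against 17.1% of all tested genes. Their median log2 fold change was -0.65. The leaf mesophyll markers given above fell beside them, 13 of 23 with a median of -1.16, and their part in these falls was not tested. Phytoene synthase (Pl08G0000330400.v1), the entry to the carotenoid path, had 39.7, 22.3 and 23.5 CPM in infested libraries and 60.5, 72.2 and 62.3 CPM in control libraries, at -1.19 ± 0.21 (edgeR adjusted p = 0.00839). NXD1 (Pl05G0000097900.v1), needed for neoxanthin in tomato, was at -1.03 ± 0.14. Carotenoid cleavage dioxygenase 4 (Pl02G0000066600.v1), of the same domain family as NCED, had 516, 436 and 322 CPM in infested libraries and 1164, 976 and 1208 CPM in control libraries, at -1.39 ± 0.19. These were called in all 15 alternatives, and the count of falls on the list ran from 4 to 11 over them. Of 21 genes found by product words for the xanthoxin step and the cofactor of the oxidase, 14 were tested, 1 rose and 0 fell, 7.14% in all. The rise was in a gene named aldehyde oxidase GLOX after *Vitis pseudoreticulata* (Pl10G0000061800.v1), at 0.84 ± 0.21. It entered the list by its name, and a part in abscisic acid synthesis was not tested. Its call was lost in 5 alternatives, among them those without control library 2 or 3 or infested library 2 or 3, with adjusted p up to 0.112.

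Genes named for dehydration, whose response to abscisic acid was not tested, split. Of 37 such genes 23 were tested, 3 rose and 4 fell, 30.4% in all, against 17.1% of all tested genes (9.65% higher, 7.46% lower). DREB1B (Pl07G0000341600.v1), a factor that switches on cold and dehydration genes in Arabidopsis, had 43, 56 and 54 counts in infested libraries and 0, 1 and 0 counts in control libraries, a ratio of 165 (95% counting interval 29.1 to 6552). DREB3 (Pl10G0000339100.v1) had 15.1, 11.3 and 11.2 CPM in infested libraries and 2.46, 2.45 and 3.18 CPM in control libraries, at 2.21 ± 0.22 (edgeR adjusted p = 0.000569). DI19-3 (Pl07G0000279400.v1) fell, at -0.51 ± 0.10, and lost its call without infested library 2 or 3, with adjusted p up to 0.0586. Of 26 tested genes for protective sugars and proline 4 rose and 3 fell, 26.9% in all. Those with the lowest p were RFS6 (Pl03G0000235800.v1) at 1.24, TPS7 (Pl11G0000277300.v1) at 0.53 and TPPJ (Pl02G0000393100.v1) at -0.71. The calls of TPS7 and TPPJ were lost in some alternatives, among them that without infested library 3. Of 30 tested aquaporins, the water channels, 6 rose and 4 fell, 33.3% in all. The aquaporin PIP2-7 (Pl05G0000245400.v1) had 701, 779 and 1044 CPM in infested libraries and 287, 231 and 178 CPM in control libraries, at 1.86 ± 0.22. SIP1-1 (Pl01G0000153100.v1) rose, at 0.93 ± 0.12, and TIP4-1 (Pl09G0000087700.v1) fell, at -1.17 ± 0.17.

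Markers of guard cells, which abscisic acid closes, and of their cell lineage had overlapping sums in the groups. Of 23 such genes 10 were tested and 0 were called by edgeR, with 2 at an unadjusted p below 0.05 and at most 1 higher and 1 lower in any alternative, DESeq2 included. Their sum was 108, 115 and 104 CPM in infested libraries and 91.8, 97.3 and 106 CPM in control libraries, and 8 were at 0 throughout. Markers of seed, where LEA genes are strongest, were near 0, with a sum of 0.699, 2.33 and 2.15 CPM in infested libraries and 6.39, 4.69 and 1.52 CPM in control libraries, and 8 of 14 at 0 throughout.

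**Figure D5:**
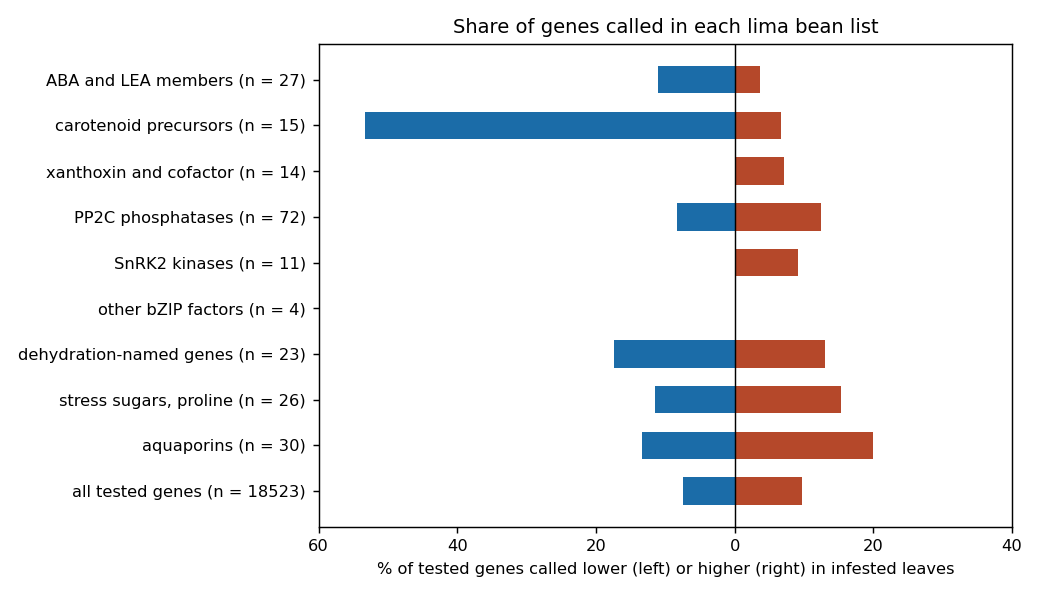
Share of tested lima bean genes called lower (blue, left of 0) and higher (red, right of 0) in infested leaves, in % (x axis), for the members, 8 lists of related genes and all tested genes (y axis; n is the number tested). Of the members 14.8% were called, against 17.1% of all tested genes and 60% of the carotenoid genes.

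In common bean 26752 of 29324 genes are named hypothetical protein, and the words of the rule were in 0 product names. The RPE65 domain family, which holds the NCED enzymes, was read instead, a choice made after the annotation was seen. Lima bean has 8 genes of the family, of which 3 were tested and 2 fell: carotenoid cleavage dioxygenase 4, given above, and dioxygenase 1 (Pl11G0000397100.v1), at -0.53 ± 0.14 (edgeR adjusted p = 0.0313, up to 0.116 over the alternatives; lost in 6 of them, among them those without control library 1, without any 1 infested library and, at -0.37, without both libraries numbered 1). Common bean has 9 genes of the family, of which 4 were tested and 0 were called by edgeR, with 1 at an unadjusted p below 0.05 and 0 called in any alternative, DESeq2 included; over all 19360 tested common bean genes 0.976% were called. Carotenoid cleavage dioxygenase 4 (PHAVU_002G120600g) was at 0.18 ± 0.09 and dioxygenase 1 (PHAVU_011G211200g) at -0.25 ± 0.10 (edgeR adjusted p = 0.555 and 0.388). For dioxygenase 1 every infested library lay below every control library. The family's unnamed gene PHAVU_005G051600g had 1030, 651 and 630 CPM in infested libraries and 922, 940 and 597 CPM in control libraries, at -0.09 ± 0.22 on the log2 scale. Another unnamed gene, PHAVU_009G109200g, was at -0.57 ± 0.61. The difference between the species was not tested.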

How the data were processed

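The authors deposited raw counts per gene, 1 table per species; per the submitters' processing notes HISAT2, featureCounts and DESeq2 were used, with no versions. The sources used here give neither genome build nor strand use; coordinates are those of the deposited tables. Lima bean names are best matches to proteins of other species; 20825 of 43997 genes have one, and 0 IDs matched the RefSeq table at hand, so no sequence is printed.

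Each species was fitted alone with edgeR 4.0.16 (R 4.3.3): TMM scaling, filterByExpr, quasi-likelihood test of infested against control, Benjamini-Hochberg adjustment over all genes tested. CPM uses the TMM-scaled library size, CPM per kilobase the deposited gene length, and the standard error comes back from the fold change and F. Called members are named, and per role also those with the 2 highest levels and 2 lowest p. Each list other than the cell markers gives its 3 called genes with the lowest p. Members and lists were chosen with earlier results of these data known. In tests on simulated data made from lima bean counts (18523 genes), the fit found 61.8% of the 2-fold changes and 92.6% of those at 4-fold, with 8.16% of calls false; for common bean (19360 genes) it found 71.4% and 92.6%, with 8.99% false. DESeq2 1.42.0 was an alternative. Counting intervals cover counting error only.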

Additional observations from a re-analysis of the deposited data

How the results depend on the processing

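Of the 27 tested members, 19 kept their side of the threshold in each of the 15 alternatives that tested them; 6 gained a call in at least 1, and 2 of the called lost it, under the replicate block among others (adjusted p = 0.0846 for the zeaxanthin epoxidase Pl03G0000289200.v1 and 0.0853 for 8'-hydroxylase 1 Pl03G0000344800.v1). ABF2 (Pl09G0000042500.v1) and PP2CA (Pl01G0000389100.v1) changed sign with both libraries numbered 1 left out, at 0.57 and 0.62. That setting called 5 members higher and 5 lower. Members called higher were 2 with no filter and 2 with DESeq2; members called lower were 1 under the replicate block, where 3.08% of all tested genes were; leaving out 1 library gave 1 to 3 higher and 1 to 4 lower. Over all lima bean genes the replicate block called 1046 higher and 571 lower, against 1788 and 1382 without it, and leaving out 1 library gave 900 to 1671 and 417 to 1533. In common bean 181 were higher and 8 lower; DESeq2 called 390 and 65, the replicate block 405 and 134, no filter 13 lower and the robust fit 18 lower, and leaving out 1 library 91 to 158 and 0 to 14. The cause was not tested. Upper-quartile scaling split lima bean calls into 1578 higher and 1680 lower, and library totals into 1614 and 1612. In lima bean the deviations of same-numbered libraries from their group means correlated at -0.22, 0.0487 and -0.184, and those of differently numbered ones at up to 0.358. In common bean same-numbered deviations correlated at 0.138, 0.0852 and 0.206, above every differently numbered pair (-0.202 to 0.0781). Whether the libraries of either species were paired was not tested. With 3 libraries per group, 61.8% of simulated 2-fold changes were recovered under the simplified settings given above, and 20 members were too low to test.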
